A study of Mus musculus with 8 samples.

Results

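Melanocyte genes were examined in the utricle, the gravity-sensing organ of the vestibular inner ear. The 8 genes Tyr, Tyrp1, Dct, Pmel, Mlana, Mitf, Kit and Ednrb were matched by symbol, out of 48823 gene identifiers in the count files. All 8 had reads in every library, and 7 of them passed a filter on low counts that left 16990 genes for testing. Mlana did not pass it. Pigment genes were detectable in both genotypes. Per length of annotated exon they ran from the 6.82nd percentile of genes tested for Tyr to the 58.4th for Pmel. None of the 7 genes tested differed between genotypes beyond the spread between libraries. Tyr, Tyrp1, Dct, Pmel and Mitf spanned 2.21-fold (Mitf) to 4.23-fold (Tyrp1) between the lowest and the highest library. With the spread within both genotypes pooled, all of them but Tyr varied more than most genes of like level. The SD of each was larger in wild-type than in mutant utricles, for Mitf 9.15 against 1.47 CPM.

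Mutant embryos carried Rest(+/deltaExon4), a heterozygous loss of exon 4 of Rest, and the others were wild type. Rest encodes a repressor of neuronal genes, and the sample titles call the mutant libraries KO although 1 allele is intact. Each of the 4 mutant and 4 wild-type libraries was made from whole utricles of C57BL/6 embryos at day E15.5, with RNA pooled from 7 to 9 mice. For wild-type replicate 4 the labels read C57BL/7 and E15.6. The labels do not say whether pools of 1 group came from separate litters, so p-values measure the spread between these libraries.

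Melanocytes of the inner ear arise from the neural crest and lie beneath the dark cells, the epithelial cells of the vestibular organs that secrete potassium into endolymph. Their identity depends on the transcription factor MITF and on signalling through the receptors KIT and EDNRB. Pigment is made in the melanosome, an organelle in which the enzymes encoded by Tyr, Tyrp1 and Dct act on a scaffold of PMEL fibrils.

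The promoters of the 3 melanogenic enzyme genes are shown because they share a run of 10 bases. It matches the M-box, a promoter element of pigment genes known to be bound by MITF. Each sequence holds the 250 bases before an annotated start, 5′ to 3′ on the strand of the gene, from RefSeq on GRCm38.p6, and capitals mark the run GTCATGTGCT. The sequences are chr4:80833963-80834212 (plus strand) for Tyrp1, chr7:87493513-87493762 (minus strand) for Tyr and chr14:118052247-118052496 (minus strand) for Dct.
Tyrp1: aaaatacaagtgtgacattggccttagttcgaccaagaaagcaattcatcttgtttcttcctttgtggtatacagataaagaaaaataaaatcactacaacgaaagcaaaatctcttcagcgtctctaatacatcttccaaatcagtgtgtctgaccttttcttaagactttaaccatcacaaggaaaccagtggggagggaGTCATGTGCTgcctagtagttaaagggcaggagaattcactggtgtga
Tyr: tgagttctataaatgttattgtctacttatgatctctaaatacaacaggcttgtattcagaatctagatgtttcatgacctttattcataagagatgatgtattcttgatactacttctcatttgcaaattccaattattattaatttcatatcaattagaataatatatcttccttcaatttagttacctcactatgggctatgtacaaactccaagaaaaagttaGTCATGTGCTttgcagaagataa
Dct: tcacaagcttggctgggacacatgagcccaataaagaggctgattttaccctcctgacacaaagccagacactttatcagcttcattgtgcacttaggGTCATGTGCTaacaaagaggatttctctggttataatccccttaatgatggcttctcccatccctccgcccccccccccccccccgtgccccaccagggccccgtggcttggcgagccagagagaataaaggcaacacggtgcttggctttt

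The run lay 23 to 14 bases before the start of Tyr, 48 to 39 bases before that of Tyrp1 and 152 to 143 bases before that of Dct. It is the longest run of bases that all 3 promoter windows share, so its presence in them is a description. Searched on both strands, GTCATGTGCT was in 61 of 32851 promoter windows of 300 bases, or 0.186%, and in windows of 42 of 27025 genes. The shorter runs inside it were less rare, with TCATGTG in 3.77% and CATGTG in 14.2% of windows. Of the 8 genes 6 had windows in the RefSeq table, 9 windows in all, and those of Kit, Mitf and Ednrb did not hold the run. Of the 42 genes 24 were in the count files. Dct, Tyrp1 and Tyr ranked after Dclk1 and C1qb among them, with means of 274, 69.0 and 41.9 reads per library against 2649 for Dclk1 and 1026 for C1qb.

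CPM are read pairs of a gene relative to the read pairs of its library on the genes tested, scaled by TMM factors. Rest was at 127 ± 3.20 CPM in mutant utricles against 116 ± 7.35 CPM in wild-type utricles (SD, n = 4 each). It was at 124.6 to 131.7 CPM in mutant and 106 to 122 CPM in wild-type libraries, which did not overlap, as was the case for 7.88% of all genes tested (exact permutation test, two-sided, p = 0.0286, which is the smallest it can give). Without TMM factors and relative to all read pairs on genes, an alternative added after seeing the data, the ranges overlapped. They were at 116 to 130.9 CPM in mutant and 107.6 to 126.7 CPM in wild-type libraries (exact permutation p = 0.229). The log2 change of Rest was 0.12 (SE 0.07, edgeR quasi-likelihood test, Benjamini-Hochberg adjusted p = 0.456). Counts per gene do not show exon use and check neither the deletion nor the labels. Library totals were 22.4 to 24.6 M read pairs on genes for the mutant and 20.4 to 23.8 M for the wild type. At an adjusted p under 0.05, 1.02% of genes tested fell (173) and 0.147% rose (25) in the mutant, 1.17% together, and the median log2 change was -0.0027. Erythroid markers summed to 521 to 806 CPM in the mutant libraries, and to 510 to 609 CPM in wild-type replicates 1 to 3 but 6750 CPM in wild-type replicate 4, which stood apart.

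Melanogenic enzymes were expressed at low levels in all libraries. Tyr encodes tyrosinase, which catalyses the first and rate-limiting step of melanin synthesis (chromosome 7, 87424771 to 87493512, minus strand, GRCm38). It was at 1.41, 1.39, 2.004 and 1.23 CPM in mutant replicates 1 to 4, and at 1.49, 2.77, 1.86 and 2.62 CPM in wild-type replicates 1 to 4, from 29 to 60 read pairs per library. Mutant replicate 3 lay among the wild-type libraries and wild-type replicate 1 among the mutant ones, so the groups overlapped. The means were 1.51 ± 0.341 CPM in mutant utricles against 2.18 ± 0.612 CPM in wild-type utricles (n = 4 each, SD), a log2 change of -0.53 (SE 0.29, 95% interval -1.16 to 0.10). It did not pass (edgeR adjusted p = 0.452, exact two-sided permutation p = 0.143). In such bulk samples fewer melanocytes and less RNA per melanocyte cannot be told apart.

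Tyrp1 encodes a tyrosinase-related melanosomal protein that stabilises tyrosinase and acts later in eumelanin synthesis in the mouse (chromosome 4, 80834123 to 80851719, plus strand). It was at 1.67, 3.20, 3.88 and 1.60 CPM in mutant and at 2.76, 5.54, 4.12 and 1.31 CPM in wild-type libraries. The lowest and the highest value were both in wild-type libraries, replicates 4 and 2, and the mutant libraries lay between them. The means were 2.59 ± 1.14 CPM in mutant utricles against 3.44 ± 1.82 CPM in wild-type utricles (n = 4 each, SD, log2 change -0.41, SE 0.43, 95% interval -1.36 to 0.53, edgeR adjusted p = 0.714).

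Dct encodes dopachrome tautomerase, an early marker of the melanocyte lineage (chromosome 14, 118012790 to 118052244, minus strand). It was at 9.09, 11.2, 16.4 and 12.6 CPM in mutant and at 9.14, 18.5, 11.5 and 7.13 CPM in wild-type libraries. The groups overlapped over most of their range, with wild-type replicate 2 and mutant replicate 3 highest. The means were 12.3 ± 3.08 CPM in mutant utricles against 11.6 ± 4.97 CPM in wild-type utricles (n = 4 each, SD), a log2 change of 0.091 (SE 0.28, 95% interval -0.52 to 0.70, edgeR adjusted p = 0.917). The sign turned without mutant replicate 3 (-0.077) and without wild-type replicate 4 (-0.079).

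**Figure D1:**
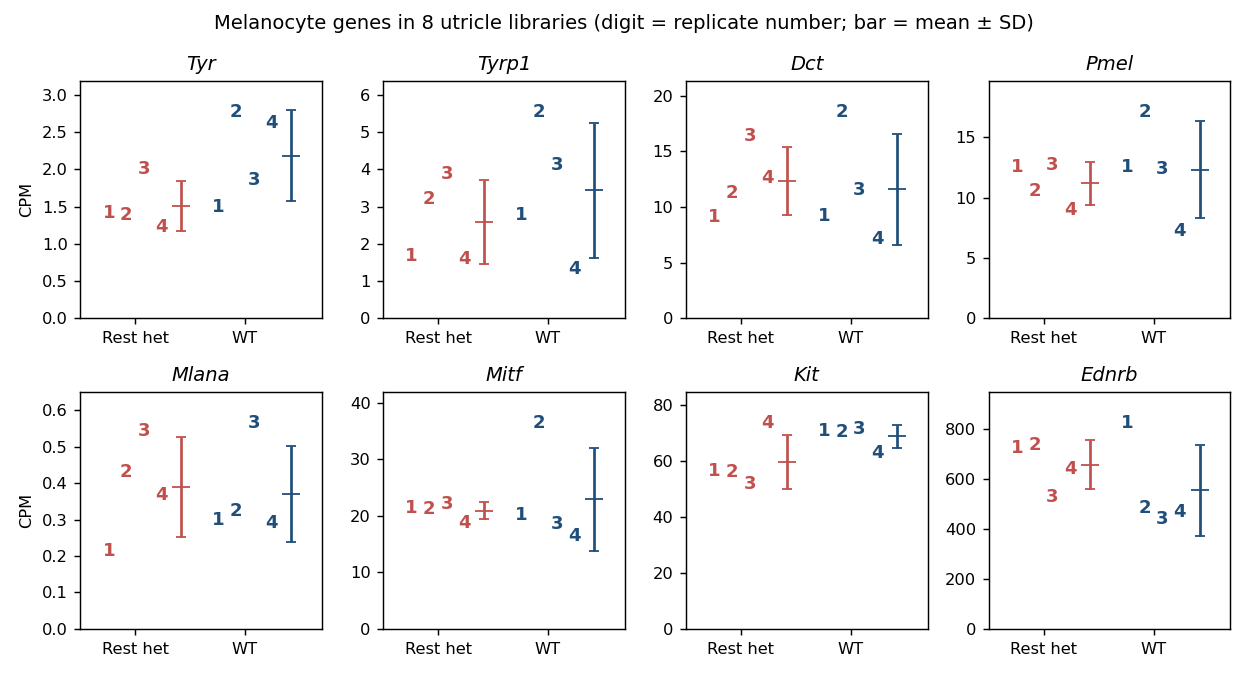
CPM (vertical axes, from 0) of the 8 melanocyte genes in 4 Rest(+/deltaExon4) and 4 wild-type utricle libraries. Each digit is 1 library at its replicate number, and the bars give the mean and SD. The groups overlap for every gene, and wild-type replicate 2 is the highest library for Tyr, Tyrp1, Dct, Pmel and Mitf.

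The structural genes of the melanosome gave no call either. Pmel encodes the fibril protein on which melanin is laid down (chromosome 10, 128704195 to 128720238, plus strand). It was at 12.5, 10.5, 12.7 and 8.96 CPM in mutant and at 12.5, 17.1, 12.4 and 7.23 CPM in wild-type libraries. Again wild-type replicates 2 and 4 were the extremes. The means were 11.2 ± 1.77 CPM in mutant utricles against 12.3 ± 4.03 CPM in wild-type utricles (n = 4 each, SD, log2 change -0.14, SE 0.23, 95% interval -0.64 to 0.36, edgeR adjusted p = 0.836). Without wild-type replicate 2 the log2 change was 0.070. Pmel overlaps the opposite-strand genes Cdk2 by 837 and Dgka by 105 bases. Reads that fall on both genes of an overlap are left out of the unstranded counts. The strand columns together assigned 11.0% more reads to Pmel. The libraries are not strand-specific, so these added reads cannot be told apart from reads of the overlapping genes.

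Mlana encodes a small melanosomal membrane protein that binds PMEL (chromosome 19, 29697824 to 29708634, plus strand). It had 5, 9, 13 and 9 read pairs in mutant and 7, 7, 14 and 6 read pairs in wild-type libraries, or 0.389 ± 0.137 and 0.370 ± 0.132 CPM in mutant and wild-type utricles (n = 4 each, SD). A difference between genotypes could not be resolved at this depth. Without the low-count filter its log2 change was 0.088 (SE 0.53, edgeR adjusted p = 0.967).

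Mitf encodes the master transcription factor of melanocytes, which is also expressed in other cells, mast cells and macrophages among them (chromosome 6, 97807052 to 98021349, plus strand). It was at 21.4, 21.3, 22.1 and 18.7 CPM in mutant and at 20.1, 36.4, 18.6 and 16.5 CPM in wild-type libraries. Wild-type replicate 2 stood above the other 7 libraries, which spanned 16.5 to 22.1 CPM. The means were 20.9 ± 1.47 CPM in mutant utricles against 22.9 ± 9.15 CPM in wild-type utricles (n = 4 each, SD, log2 change -0.13, SE 0.22, 95% interval -0.61 to 0.35, edgeR adjusted p = 0.840). Without that library the log2 change was 0.20. Gene counts join all Mitf promoters and isoforms, so the melanocyte isoform was not measured apart.

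The receptor genes also gave no call. Kit encodes the receptor for stem cell factor, needed for melanocyte migration and survival and also found on mast cells (chromosome 5, 75574916 to 75656722, plus strand). It was at 56.4, 56.1, 51.6 and 73.6 CPM in mutant and at 70.5, 70.3, 71.4 and 62.6 CPM in wild-type libraries. Mutant replicates 1 to 3 lay below all wild-type libraries and mutant replicate 4 above all of them. The means were 59.4 ± 9.67 CPM in mutant utricles against 68.7 ± 4.11 CPM in wild-type utricles (n = 4 each, SD). The log2 change was -0.21 (SE 0.11, 95% interval -0.45 to 0.03) and did not pass (edgeR adjusted p = 0.431, exact two-sided permutation p = 0.143).

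Mast cell markers summed to 20.9, 15.3, 11.5 and 34.6 CPM in mutant and to 17.2, 29.1, 13.7 and 26.5 CPM in wild-type libraries. Among mutant libraries both the sum and Kit were highest in replicate 4 and lowest in replicate 3. Among wild-type libraries Kit was highest in replicate 3, where the sum was lowest, and lowest in replicate 4, where the sum was among the higher ones. Of the 8 mast cell markers 4 were tested and none passed, 1 was at 0 in all libraries and 4 had at most 10 reads in every library. Their part in the level of Kit was not tested. Without mutant replicate 4 the log2 change of Kit was -0.32 (edgeR adjusted p = 0.130).

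Kit lies 1.61 Mb from Rest on the same chromosome. Of 51 other genes tested within 5 Mb of Rest, Kit included, 34 had a negative log2 change and the median was -0.17, against -0.21 for Kit. Of the 51, 21 had a more negative value than Kit, and edgeR called 0 of them. Unadjusted p was under 0.05 for 10 (19.6%), against 13.4% of all genes tested. DESeq2 called 2 of the 51, Nipal1 and Fryl, named after their values were seen. Of all 16990 genes tested it called 411 lower and 153 higher.

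Ednrb encodes the endothelin B receptor, required for melanoblast development and also expressed in glia, endothelium and epithelia (chromosome 14, 103814625 to 103844402, minus strand). It was at 725, 736, 526 and 639 CPM in mutant and at 824, 483, 440 and 466 CPM in wild-type libraries. Wild-type replicate 1 was the highest of all libraries while the other wild-type libraries were below all mutant ones. The means were 656 ± 97.3 CPM in mutant utricles against 553 ± 181 CPM in wild-type utricles (n = 4 each, SD), a log2 change of 0.25 (SE 0.19, 95% interval -0.18 to 0.67, edgeR adjusted p = 0.607). Without wild-type replicate 1 the log2 change was 0.51 (edgeR adjusted p = 0.131). Schwann cell and glial markers summed to 703 to 849 CPM in mutant utricles against 644 to 745 CPM in wild-type utricles, highest among wild-type libraries also in replicate 1. Their part in the level of Ednrb was not tested.

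**Figure D2:**
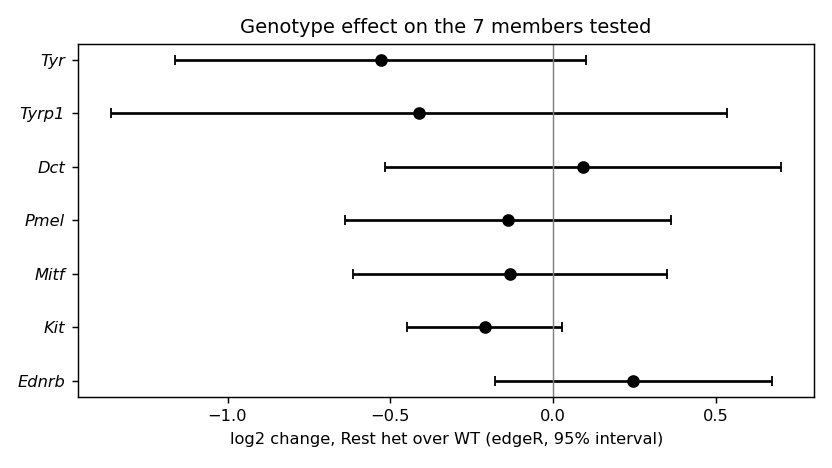
Log2 change of the 7 genes tested, Rest(+/deltaExon4) over wild type (horizontal axis), with the 95% interval from edgeR. Every interval holds 0, from the narrowest for Kit (-0.45 to 0.03) to the widest for Tyrp1 (-1.36 to 0.53).

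Of the 7 genes tested, 0 passed at an adjusted p under 0.05 with edgeR, against 1.17% of all genes. None had an unadjusted p under 0.05, and DESeq2 called 0. The log2 changes were positive for 2 and negative for 5, with a median of -0.14. The groups overlapped for all 7, against 7.88% of all genes tested without overlap. The intervals do not exclude sizeable differences: that of Tyr reaches -1.16 on the log2 scale, and that of Dct runs from -0.52 to 0.70.

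Per length, Ednrb was far above the other genes. Divided by annotated exon length, it averaged 141.8 ± 34.1 CPM per kb over the 8 libraries (SD, n = 8), at the 98.0th percentile of genes tested. Kit followed at 7.19 ± 0.953, Pmel at 5.12 ± 1.29, Mitf at 3.53 ± 0.995 and Dct at 2.03 ± 0.652 CPM per kb. Tyrp1 was at 1.06 ± 0.521, Mlana at 0.359 ± 0.118 and Tyr at 0.260 ± 0.0821 CPM per kb, the last at the 6.82nd percentile.

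Ednrb was 19.7-fold above Kit with no overlap of their libraries. The ranges of all other neighbours in this order overlapped, although each gene was above the next in 8 of 8 libraries, except Mlana, which was above Tyr in 6 of 8. Exon length here joins all annotated isoforms, which lowers the values of genes with long alternative exons. Percentiles are among the 16990 genes tested, to which Mlana does not belong.

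**Figure D3:**
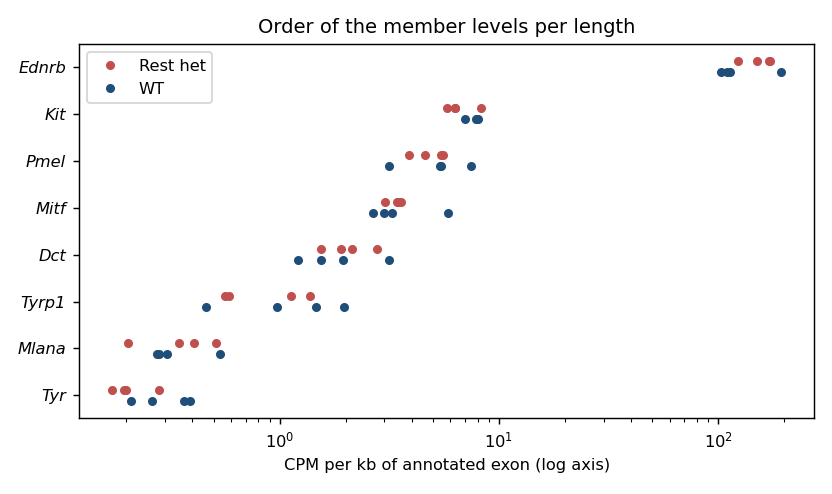
Level of each gene in CPM per kb of annotated exon (horizontal log axis) in 4 Rest(+/deltaExon4) and 4 wild-type libraries, 1 point per library, in the order of the means. Ednrb (mean 141.8 CPM per kb) stands alone, and the other genes run down to Tyr at 0.260 CPM per kb with overlapping neighbours.

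The pigment genes varied between libraries of 1 genotype. Summed over Tyr, Tyrp1, Dct, Pmel and Mlana, they were at 24.9, 26.8, 35.5 and 24.7 CPM in mutant and at 26.2, 44.2, 30.4 and 18.6 CPM in wild-type libraries. The sums averaged 27.98 ± 5.12 CPM in mutant utricles against 29.9 ± 10.8 CPM in wild-type utricles (n = 4 each, SD). Wild-type replicate 2 was highest for 5 of the 8 genes and wild-type replicate 4 lowest for 4, namely Tyrp1, Dct, Mitf and Pmel.

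Within genotypes, with both pooled, the coefficient of variation was 50.3% for Tyrp1, 34.6% for Dct, 30.0% for Mitf and 26.5% for Pmel. These lay at the 94.9th, 95.9th, 96.1st and 90.3rd percentile of genes of like level. Ednrb, at 24.1%, lay at the 97.3rd percentile. Kit, Tyr and Mlana, at 11.6%, 26.8% and 35.4%, lay at the 71.6th, 40.7th and 22.1st percentile, and Tyr and Mlana are also the genes with the fewest read pairs.

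The mixture of pigment transcripts also differed between libraries. Dct was 0.726, 1.07, 1.29 and 1.40 times Pmel by read pairs in mutant and 0.731, 1.08, 0.928 and 0.987 times in wild-type libraries. Tyrp1 had more read pairs than Tyr in 7 of the 8 libraries, and in wild-type replicate 4 it had 0.5 times as many. That library is also the one with the high erythroid sum, whose part in its low pigment values was not tested.

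Correlations between the 8 genes, on log2(CPM + 0.5) over the 8 libraries, were computed for 28 pairs, and none passed Benjamini-Hochberg adjustment. Mitf and Pmel had the highest, with Pearson r = 0.820 (exact permutation p = 0.0116, adjusted p = 0.137) and Spearman rho = 0.881 (exact permutation p = 0.00724, adjusted p = 0.203). Without the libraries farthest from the median of Mitf, wild-type replicates 2 and 4, r was 0.411. Tyrp1 and Pmel gave r = 0.809 (exact permutation p = 0.0108, adjusted p = 0.137) and rho = 0.714 (exact permutation p = 0.0576, adjusted p = 0.529), with r = 0.494 without those libraries. Tyrp1 and Dct gave r = 0.766 (exact permutation p = 0.0279, adjusted p = 0.137) and rho = 0.714 (exact permutation p = 0.0576, adjusted p = 0.529), with r = 0.418 without them. All 3 r were smaller without wild-type replicates 2 and 4. Among other pairs r also fell for some, as for Dct and Mitf (0.749 to 0.149). It rose for others, as for Tyr and Tyrp1 (0.341 to 0.824). Tyr and Ednrb ran the other way, with r = -0.778 (exact permutation p = 0.0294, adjusted p = 0.137) and rho = -0.619 (exact permutation p = 0.115, adjusted p = 0.529), and r = -0.713 without wild-type replicates 2 and 4.

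Genes most like the pigment genes were ranked by Pearson r with the mean of the 5 standardised pigment genes over 8 libraries, after subtracting genotype means. Of 12594 protein-coding genes ranked, 39 (0.310%) had r over 0.9, and the median r was 0.0106. All points share the library scaling, and no p is given. With 8 libraries high r also arise between unrelated genes, and how many over 0.9 chance would give was not tested. The 10 highest were Fndc7 (0.974), Zpld1 (0.967), Kcne1 (0.960), Esrrb (0.954), Eif5a2 (0.953), Cers4 (0.953), Rspo3 (0.951), Sfrp5 (0.949), Fez1 (0.942) and Fut10 (0.940). Without wild-type replicate 2 and mutant replicate 3, the libraries with the highest pigment sums, chosen after seeing the data, these r ranged from 0.796 for Fut10 to 0.983 for Kcne1. Rspo3 and Sfrp5 encode secreted modulators of Wnt signalling, and Cers4 encodes a ceramide synthase.

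Zpld1, which encodes a zona pellucida-like domain protein, was at 171, 235, 531 and 132 CPM in mutant and at 112, 405, 202 and 112 CPM in wild-type libraries. It was highest in the same pair of libraries as the pigment sum. Kcne1, a subunit of the potassium channel through which dark cells secrete, was at 7.20, 10.6, 12.5 and 8.43 CPM in mutant and at 9.44, 17.4, 14.5 and 6.89 CPM in wild-type libraries. Esrrb, a nuclear receptor of endolymph-secreting cells of the mouse inner ear, was at 5.53, 11.4, 18.6 and 8.10 CPM in mutant and at 8.08, 15.3, 13.4 and 4.85 CPM in wild-type libraries. Both were lowest in wild-type replicate 4, as the pigment sum was. They were highest in wild-type replicate 2 (Kcne1) or mutant replicate 3 (Esrrb), the libraries with the highest pigment sums. Zpld1, Kcne1 and Esrrb were chosen by likeness over these same libraries, so their shared extremes are a description. Kcne1 and Esrrb are on the list of dark cell and endolymph transport genes, of which 10 were ranked, with a median r of 0.41. The medians of the macrophage and endothelial lists were higher, at 0.449 (10 genes ranked) and 0.454 (8 genes ranked).

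The pattern was not shared by all genes of that list, with r = 0.140 for Kcnq1, the partner channel of KCNE1, and r = -0.335 for Slc12a2, a chloride cotransporter gene. The summed dark cell list ranged from 774 to 858 CPM in mutant and from 720 to 778 CPM in wild-type libraries. None of its 12 genes passed between genotypes (2 at an unadjusted p under 0.05 with edgeR, 0 called by DESeq2). The median r was 0.17 for mesenchyme, -0.10 for supporting cell, -0.23 for hair cell, -0.32 for Schwann cell and -0.53 for erythroid genes.

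**Figure D4:**
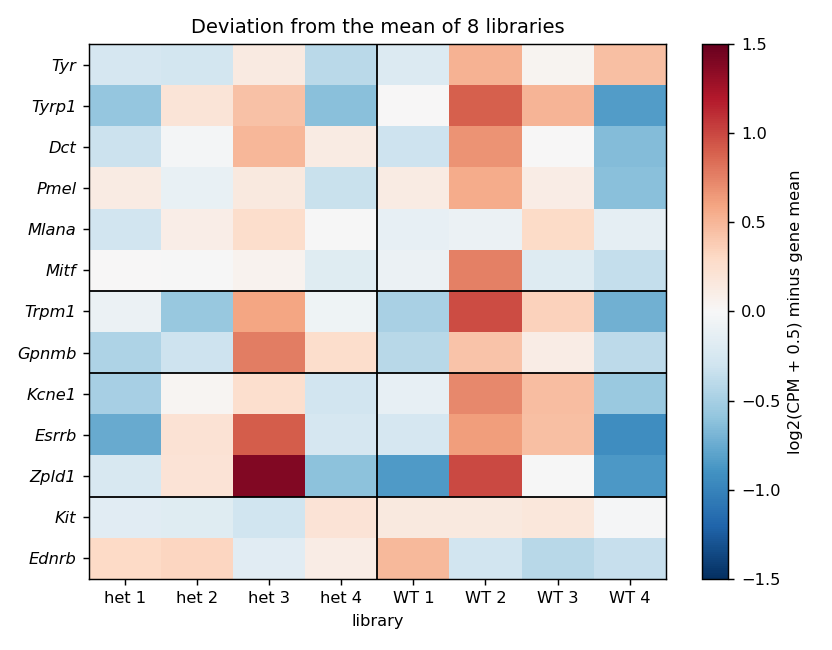
Deviation of log2(CPM + 0.5) from the mean of each gene over 8 libraries (colour), for pigment genes and Mitf, the melanosomal genes Trpm1 and Gpnmb, dark cell genes with Zpld1, and the receptor genes (rows), in 4 Rest(+/deltaExon4) and 4 wild-type libraries (columns). Trpm1, Gpnmb, Kcne1, Esrrb and Zpld1 are shown for their high r with the pigment genes. Negative r were found for 2 of 10 ranked genes of the dark cell list. They were also found for 6 of 22 ranked genes of melanosome biogenesis and ion transport. The rows of Tyrp1, Dct, Kcne1, Esrrb and Zpld1 are high in wild-type replicate 2 and mutant replicate 3. Those of Kit and Ednrb follow other libraries.

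Genes listed as regulators of the melanocyte lineage did not pass either. Of 12 lineage regulators 11 were tested, with 0 called by edgeR or DESeq2, 1 at an unadjusted p under 0.05, 10 positive log2 changes and a median of 0.15. Sox10, a neural crest factor that activates Mitf and also marks Schwann cells, was at 62.8, 45.8, 58.1 and 44.7 CPM in mutant and at 40.7, 42.6, 48.4 and 42.5 CPM in wild-type libraries. The groups overlapped through wild-type replicate 3 (means 52.9 ± 9.00 CPM in mutant utricles against 43.6 ± 3.36 CPM in wild-type utricles, SD, n = 4 each, edgeR adjusted p = 0.350). Lef1, a mediator of Wnt signalling, was at 45.1 ± 6.18 CPM in mutant utricles against 40.1 ± 3.41 CPM in wild-type utricles, and the repressor gene Zeb2 at 29.1 ± 2.46 CPM in mutant utricles against 28.7 ± 4.91 CPM in wild-type utricles. Pax3, another activator of Mitf, was at 0.556 ± 0.401 CPM in mutant utricles against 0.480 ± 0.272 CPM in wild-type utricles.

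The ligands of both receptors were detected in every library and gave no call. Kitl, the ligand of KIT, was at 42.4 ± 2.20 CPM in mutant utricles against 44.7 ± 7.44 CPM in wild-type utricles (n = 4 each, SD, edgeR adjusted p = 0.821). Edn3, the ligand of EDNRB in melanoblast development, was at 21.5 ± 2.26 CPM in mutant utricles against 21.7 ± 3.83 CPM in wild-type utricles (edgeR adjusted p = 0.982). Ece1, which cleaves the endothelin precursors, was at 398 ± 84.1 CPM in mutant utricles against 350 ± 26.8 CPM in wild-type utricles. Erbb3, a neuregulin receptor of neural crest derivatives, was at 177 ± 36.4 CPM in mutant utricles against 150 ± 12.5 CPM in wild-type utricles, and Mgrn1, a ubiquitin ligase of the melanocortin pathway, at 151 ± 13.2 CPM in mutant utricles against 141 ± 3.70 CPM in wild-type utricles. Of 15 genes on this list 13 were tested, and 0 were called by edgeR or DESeq2 or had an unadjusted p under 0.05 (median log2 change 0.10).

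Genes of melanosome biogenesis and ion transport gave 0 calls by edgeR or DESeq2 among 24 tested of 25, with 2 at an unadjusted p under 0.05 and a median log2 change of 0.017. Those were Cd63, a tetraspanin that sorts PMEL and is found in most cells, and Hps3, a subunit of a complex for lysosome-related organelles, named for their unadjusted p. Cd63 was at 340 ± 15.7 CPM in mutant utricles against 305 ± 10.1 CPM in wild-type utricles (edgeR adjusted p = 0.348). Hps3 was at 20.7 ± 1.65 CPM in mutant utricles against 25.8 ± 1.28 CPM in wild-type utricles (edgeR adjusted p = 0.184). They were the only genes of this list whose groups did not overlap, 2 of 24, against 7.88% of all genes tested, and 13.4% of all genes tested had an unadjusted p under 0.05. Bloc1s6 was at 88.3 ± 10.2 CPM in mutant utricles against 80.2 ± 4.42 CPM in wild-type utricles, and Ap3b1 at 79.0 ± 4.79 CPM in mutant utricles against 77.7 ± 5.43 CPM in wild-type utricles.

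Among ion transporters and receptors of the pigment cell itself, none passed. Slc24a5, an exchanger of pigment cells, was at 5.71 ± 0.998 CPM in mutant utricles against 6.54 ± 1.22 CPM in wild-type utricles. Oca2, a melanosomal chloride channel gene, was at 0.557 to 2.05 CPM in mutant utricles against 0.878 to 2.72 CPM in wild-type utricles, and Slc45a2 at 0.702 ± 0.565 CPM in mutant utricles against 0.961 ± 0.418 CPM in wild-type utricles. Gpr143, a melanosomal receptor, was at 0.410 ± 0.161 CPM in mutant utricles against 0.319 ± 0.226 CPM in wild-type utricles and was not tested. The edgeR adjusted p of the other 3 were 0.688, 0.862 and 0.763. By likeness to the pigment genes, Trpm1, a cation channel of melanocytes, ranked 73 (r = 0.868) and Gpnmb, a melanosomal glycoprotein also made by macrophages, ranked 133 (r = 0.823) of 12594. Without wild-type replicate 2 and mutant replicate 3 their r were 0.592 and 0.456. They were singled out after their values were seen, and the 22 genes of their list that were ranked had a median r of 0.12, with 6 negative.

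The 6 genes of melanosome transport were all tested, with 0 called by edgeR or DESeq2, 0 at an unadjusted p under 0.05 and a median log2 change of 0.089. Mreg was at 56.0 ± 12.5 CPM in mutant utricles against 52.9 ± 5.27 CPM in wild-type utricles. Rab27a, which links melanosomes to the motor, was at 39.4 ± 7.44 CPM in mutant utricles against 33.4 ± 3.28 CPM in wild-type utricles, and Myo5a, the motor, at 10.3 ± 1.10 CPM in mutant utricles against 9.65 ± 1.60 CPM in wild-type utricles.

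Of 8 other melanocyte-enriched genes, all tested, 0 were called by edgeR or DESeq2, 1 had an unadjusted p under 0.05 and the median log2 change was -0.11. That gene was Fabp7, also a glial marker, at 427 ± 26.4 CPM in mutant utricles against 371 ± 19.7 CPM in wild-type utricles (n = 4 each, SD, edgeR adjusted p = 0.292). Ptgds, which is also high in meninges, was at 331 ± 349 CPM in mutant utricles against 501 ± 657 CPM in wild-type utricles, an SD as large as the mean. Gsta4 was at 149 ± 12.3 CPM in mutant utricles against 157 ± 9.59 CPM in wild-type utricles.

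Markers of other cell types were measured in the same libraries. Retinal pigment epithelium markers summed to 104 to 114 CPM in mutant utricles against 102 to 121 CPM in wild-type utricles, nearly all from Rlbp1 (102 ± 3.28 CPM in mutant utricles against 102 ± 7.93 CPM in wild-type utricles). The defining marker Rpe65 was at 0.0322 ± 0.0643 CPM in mutant libraries and had no read in wild-type libraries, and 4 of the 8 markers had at most 10 reads in every library. Macrophage markers summed to 146 to 246 CPM in mutant utricles against 171 to 219 CPM in wild-type utricles, endothelial markers to 227 to 267 CPM in mutant utricles against 228 to 250 CPM in wild-type utricles, and mesenchyme markers to 1933 to 2765 CPM in mutant utricles against 2236 to 2468 CPM in wild-type utricles. Epidermal keratinocyte markers summed to 28.4 to 31.8 CPM in mutant utricles against 25.0 to 33.8 CPM in wild-type utricles.

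The organ itself was represented by supporting cell markers, at 3799 to 4883 CPM in mutant utricles against 4003 to 4737 CPM in wild-type utricles, and by hair cell markers, at 654 to 808 CPM in mutant utricles against 750 to 868 CPM in wild-type utricles. Of the 12 hair cell markers Otof and Slc17a8 fell in mutant libraries with edgeR, against 1.02% of all genes tested called lower. DESeq2 called 4 of the 12, against 411 lower and 153 higher of all 16990 genes tested. These 4 were not all lower, since Pvalb was at 20.2 to 22.9 CPM in mutant and 11.1 to 16.3 CPM in wild-type libraries. In the Schwann, mast, retinal pigment epithelium, mesenchyme, endothelial, macrophage, erythroid, keratinocyte and supporting cell lists 0 genes were called by edgeR or DESeq2, with 0 to 6 genes of a list at an unadjusted p under 0.05.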

How the data were processed

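RNA-seq was done on 8 utricle libraries, 4 of each genotype, which were grouped by the genotype label. Per the labels' protocols, 200 to 300 ng of RNA was primed with oligo-dT, amplified in 12 PCR cycles, tagmented and read as 126-base pairs. Per the submitters' processing notes, STAR 2.5.2a, GRCm38.p4 and DESeq2 (no version) were used. The authors deposited raw counts of read pairs per gene. The 2 strand columns of a file had totals in a ratio of 0.996 to 1.00, so the unstranded column was used, in which reads shared by overlapping genes are left out. Library sizes leave out the lines that name no gene (25.2% to 33.9% of read pairs). The authors' deposited normalized counts, a signal of counts divided by size factors, hold 21369 genes in 7 libraries, without wild-type replicate 4. At a tolerance of 0.001 reads 100% of these values came out as whole reads equal to the deposited counts.

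Genes passed filterByExpr (minimum count 10, minimum total 15) and genotypes were tested by edgeR 4.0.16, under R 4.3.3 (quasi-likelihood test, TMM factors, Benjamini-Hochberg adjustment over 16990 genes, threshold 0.05). The SE of a log2 change is its absolute value over the root of the F statistic, and the interval follows from it. Single genes were also tested by exact permutation of CPM (two-sided, 70 assignments, smallest p 0.0286). Symbols, coordinates and exon lengths came from GENCODE M21 (48349 of 48823 identifiers found). The test was checked on simulated counts. DESeq2 1.42.0, other scalings and filters, a replicate block, the 7 libraries of the authors' table and single left-out libraries were the alternatives.

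The genes and lists were chosen with earlier results of these data known. Named were the 8 genes, Rest, 8 further melanocyte genes (Edn3, Kitl, Sox10, Pax3, Oca2, Slc45a2, Slc24a5, Gpr143), the called or otherwise the 3 most abundant genes of each melanocyte list, up to 3 of the most abundant genes of each cell type list (of these the text names Rlbp1, Otof, Slc12a2 and C1qb), and the 10 genes most like the pigment genes among those with a mean of at least 2 CPM. Trpm1, Gpnmb, Kcnq1, Hps3, Nipal1, Fryl, Dclk1, Slc17a8, Pvalb and Rpe65 were named outside this rule after their values were seen. The result of 1 further gene is not reported here.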

Additional observations from a re-analysis of the deposited data

Results flagged for a closer look

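Of 16 groups of 4 libraries examined, 2 for each of the 8 genes, 3 held a library whose gap to its nearest neighbour exceeded Dixon's 95% critical value, as a share of the range of its group. Chance alone gives about 1 in 20 groups. In wild-type replicate 3 Mlana was at 0.566 CPM, against at most 0.323 CPM in the other wild-type libraries, which is a matter of 14 against 6 or 7 read pairs. In wild-type replicate 4 Kit was at 62.6 CPM, against at least 70.3 CPM in the other wild-type libraries. In wild-type replicate 1 Ednrb was at 824 CPM, against at most 483 CPM in the other wild-type libraries. No single library holds more than 1 of these 3 values.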

How the results depend on the processing

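None of the melanocyte genes tested was called under any of 16 alternatives, with the lowest adjusted p at 0.130 for Kit (edgeR, without mutant replicate 4). The sign was the same in all 16 alternatives for Tyr (log2 change -0.70 to -0.38), Tyrp1 (-0.68 to -0.08), Kit (-0.32 to -0.14) and Ednrb (0.15 to 0.51). Leaving out each library in turn gave -0.0794 to 0.42 for Dct, -0.26 to 0.20 for Mitf and -0.32 to 0.0703 for Pmel. In the 7 libraries of the authors' table Dct was at -0.0794, which is the fit without wild-type replicate 4. Without wild-type replicate 2 and mutant replicate 3 together, an alternative added after seeing the data, Mitf was at 0.16. The median over the genes tested ran from -0.26 to 0.07. The median of the list of ligands was -0.0196 with a filter of at least 1 CPM in 4 libraries. Genes called lower over the whole table numbered 411 with DESeq2, 112 in the 7 libraries, 75 without wild-type replicate 2 and mutant replicate 3 and 105 to 140 with single libraries left out. Genes called higher numbered 153 with DESeq2 and 12 to 28 with single libraries left out. The cause of these shifts was not tested.

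With the replicate number as a block, 80 genes were called lower and 16 higher. Same-numbered libraries did not deviate together (r from -0.120 to 0.0554), and no mutant library correlated best with its own number. Such values cannot tell whether same-numbered libraries were prepared together, and pairing was not tested otherwise. Mlana was tested only without the low-count filter. Mlana with 5 to 14 and Tyr with 29 to 60 read pairs per library limit what could be resolved.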
